A study of Mus musculus with 25 samples.

Results

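The genes that carry arachidonic acid to prostaglandin E2 and to the leukotrienes were followed by RNA-seq in mouse macrophages, over all 9 conditions of the series. They are 10 in number, Pla2g4a, Ptgs1, Ptgs2, Ptges, Ptger2, Ptger4, Alox5, Alox5ap, Lta4h and Ltc4s, and were taken by symbol from the 24411 genes of the deposited count tables, and all 10 were found there. The series holds 21 samples of bone marrow-derived macrophages (BMDMs) in 7 groups of 3, and 4 samples of RAW264.7, a mouse macrophage cell line, in 2 groups of 2. BMDMs came from C57BL/6 mice and were cultured in M-CSF (25 ng/ml) over 4 days. The groups were control BMDMs cultured for 4 h, BMDMs given IFN-γ at 100 U/ml plus LPS at 100 ng/ml over 1, 4, 12 or 24 h, called IFN-γ-primed LPS here, BMDMs given IL-4 or IL-13 (10 ng/ml) for 12 h, RAW264.7 control cells, and RAW264.7 cells given LPS alone (100 ng/ml) for 4 h. The 3 control samples served every comparison of treated with control BMDMs, so that there time in culture and treatment cannot be told apart at 1, 12 and 24 h or for the cytokines. RAW264.7 is 1 transformed line from BALB/c mice, so that cell line and mouse strain cannot be told apart in comparisons with BMDMs. Per the study's methods, the BMDM samples of a group were biological replicates with independent RNA, but the number, age and sex of the mice, and whether each sample came from its own animal or culture, are not given in the labels, so that p-values measure the spread between these samples.

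Arachidonic acid is released from membranes by cytosolic phospholipase A2 (Pla2g4a) and enters either of 2 routes. In the prostanoid route, the cyclooxygenases Ptgs1 (COX-1, usually constitutive) and Ptgs2 (COX-2, usually inducible) make prostaglandin H2, which the synthase Ptges turns into prostaglandin E2, and cells sense it through the receptors EP2 (Ptger2) and EP4 (Ptger4). In the leukotriene route, 5-lipoxygenase (Alox5), presented with its substrate by the membrane protein FLAP (Alox5ap), makes leukotriene A4, which Lta4h turns into the neutrophil attractant leukotriene B4 and Ltc4s into leukotriene C4, the first of the cysteinyl leukotrienes. Macrophages are known for both routes, and COX-2 is a classical gene of the LPS response.

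Sense-strand counts on genes totalled 2378639 to 3357300 per sample (median 2718848), of which the ribosomal precursor Rn45s took 20.1% to 39.8%. Without Rn45s, 1502618 to 2532496 counts were left per sample. Levels are given as CPM (counts-per-million) after TMM scaling of all 25 samples, and 1 count was worth 0.347 to 0.887 CPM. The macrophage markers (8 of 9 listed were in the tables) summed to 18980 to 32980 CPM in BMDMs and 8552 to 10290 CPM in RAW264.7, where Mertk was at 0. Lymphocyte markers summed to at most 0.579 CPM in any sample, and mast cell markers to at most 3.77 CPM in control BMDMs and 0 in RAW264.7. Genes of the IFN-γ and LPS response (4 listed) summed to 67.6 to 77.5 CPM in control BMDMs, 16260 to 17210 CPM at 4 h and 1433 to 1456 CPM in RAW264.7 with LPS. Genes known to answer IL-4 or IL-13 (4 listed) summed to 83.6 to 97.4 CPM in control BMDMs, 1161 to 1242 CPM with IL-4 and 1961 to 2059 CPM with IL-13. A technical property divided the libraries: of the counts on Rn45s, the antisense strand took 0.0386% to 0.122% in the control libraries and those of 1, 4 and 12 h (12 in all), and 0.00603% to 0.0214% in those of 24 h and of both cytokines (9 in all). In the RAW264.7 libraries it took 0.0199% to 0.0283%, below the range of the set with the control BMDMs. Comparisons across these sets, or of RAW264.7 with control BMDMs, cannot be told apart from this difference between libraries.

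To show the start of the genes on which the results turn, RefSeq promoter windows (GRCm38.p6, 250 bases before to 50 bases after the annotated start) are printed for Ptgs2, Ptges and Ptgs1. The windows are chr1:150099781-150100080 on the plus strand, chr2:30903248-30903547 on the minus strand and chr2:36230176-36230475 on the plus strand, written 5′ to 3′ along the gene. The genes themselves lie at chr1:150100031-150108227 (Ptgs2), chr2:30889471-30929863 (Ptges) and chr2:36230426-36252272 (Ptgs1) in the GENCODE M21 annotation of the same build, and the Ptges window is inside the longer annotated gene. Capitals mark matches to any of 8 letter motifs that were searched, 7 of them on both strands: the NF-κB consensus, AP-1 (TGANTCA), the CRE core (TGACG), GAS (TTCNNNGAA), the STAT6 spacing (as GAS but with 1 more N), ISRE, EGR (GCGGGGGCG) and, on the strand of the gene only, TATAAA (the TATA box).
Ptgs2: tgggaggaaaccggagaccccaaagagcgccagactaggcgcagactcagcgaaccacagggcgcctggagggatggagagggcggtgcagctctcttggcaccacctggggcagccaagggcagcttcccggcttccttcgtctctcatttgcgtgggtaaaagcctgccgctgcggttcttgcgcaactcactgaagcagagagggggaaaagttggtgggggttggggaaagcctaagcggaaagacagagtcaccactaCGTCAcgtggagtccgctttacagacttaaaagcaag
Ptges: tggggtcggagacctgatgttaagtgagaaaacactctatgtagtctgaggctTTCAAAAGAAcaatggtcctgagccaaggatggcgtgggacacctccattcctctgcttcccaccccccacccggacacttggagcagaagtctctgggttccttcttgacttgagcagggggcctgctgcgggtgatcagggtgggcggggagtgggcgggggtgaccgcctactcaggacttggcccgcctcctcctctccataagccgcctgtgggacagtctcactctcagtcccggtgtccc
Ptgs1: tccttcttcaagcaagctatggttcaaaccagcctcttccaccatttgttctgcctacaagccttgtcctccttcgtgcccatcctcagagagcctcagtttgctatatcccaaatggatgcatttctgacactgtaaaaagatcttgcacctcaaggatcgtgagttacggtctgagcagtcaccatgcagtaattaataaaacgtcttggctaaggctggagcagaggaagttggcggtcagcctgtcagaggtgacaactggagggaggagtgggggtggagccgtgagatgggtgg
Promoter windows were found for 9 of the 10 genes, 10 windows in all, and Alox5ap had no entry. Of these 10 windows, 1 held the CRE core (Ptgs2, in the reverse orientation, beginning at base 14 after the start) and 1 held the STAT6 spacing (Ptges, beginning 197 bases before the start). The CRE core was present in 20.8% and the STAT6 spacing in 6.95% of 32851 mouse promoter windows. The other 6 motifs, which were present in 2.91% (EGR), 3.44% (ISRE), 7.81% (AP-1), 8.30% (GAS), 8.32% (TATA) and 8.46% (NF-κB) of all windows, had no match in the 10 windows. The windows are short and the matches did not overlap each other.

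**Figure D1:**
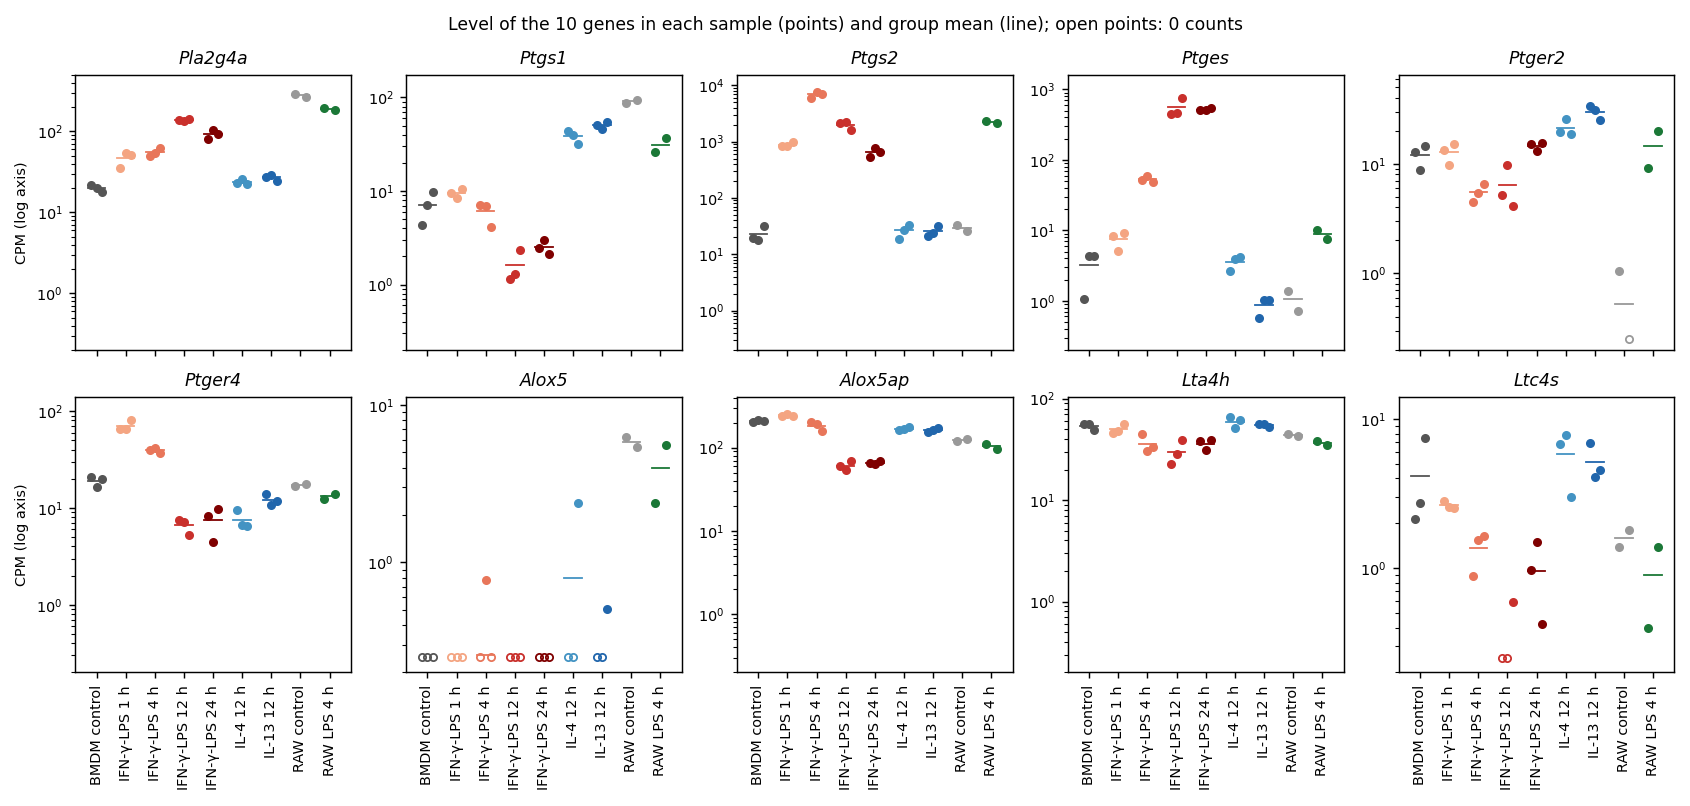
CPM (log axis, each panel with its own range) of the 10 genes in each of the 25 samples, with 1 point per sample, a line at the group mean and open points for samples with 0 counts. Ptgs2 reaches 6900 CPM on average at 4 h, Ptges stays above 455 CPM at 12 and 24 h, Ptgs1 stands highest in RAW264.7 control cells and after IL-13, and Alox5 is at 0 in 18 of 21 BMDM libraries.

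In control BMDMs, genes of the leukotriene route stood highest. Per kilobase of exon (GENCODE M21 lengths), Alox5ap was the highest of the 10 genes with 156 ± 4.49 CPM per kb (SD, n = 3), followed by Lta4h with 26.5 ± 1.90, and then Pla2g4a with 6.48 ± 0.64 and Ltc4s with 6.33 ± 4.51, which did not differ beyond their spread. Alox5 itself, the enzyme that FLAP serves (chr6:116410077-116461178, minus strand), had 0 counts in all 3 control samples. A count of 0 allows up to 3 counts, here 1.62 CPM on average per control library, for counting error only. Over all 21 BMDM libraries Alox5 had 6 sense counts in 3 libraries, 4 of them in the third IL-4 sample, and 14 antisense counts, so that its level in BMDMs was not detectable at this depth. The antisense share of the other genes was 0.152% to 3.87%, and 7.46% for Ltc4s.

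The first question was how the pathway moved over time with IFN-γ-primed LPS. The 15 samples of control and 4 time points were fitted together (edgeR quasi-likelihood test, Benjamini-Hochberg adjustment over 9568 genes), and a gene was called at an adjusted p of at most 0.01. The filter on low counts was passed by 8 of the 10 genes, and not by Alox5 and Ltc4s. Ptges passed it only through samples with IFN-γ-primed LPS, where it was high. At 1 h, 3 were higher (Pla2g4a, Ptgs2, Ptger4), beside 14.7% of all genes called higher, and 0 lower, beside 11.3%. At 4 h, 4 were higher (Pla2g4a, Ptgs2, Ptger4, Ptges), beside 26%, and 2 lower (Lta4h, Ptger2), beside 25.6%. At 12 h, 3 were higher (Pla2g4a, Ptgs2, Ptges), beside 23.9%, and 5 lower (Ptgs1, Alox5ap, Lta4h, Ptger2, Ptger4), beside 23.4%. At 24 h the 3 genes higher at 12 h were higher, beside 23.9%, and 4 were lower (Ptgs1, Alox5ap, Lta4h, Ptger4), beside 21.3%.

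With the study's fold cutoff, a log2 fold change of 1.5, Ptgs2 and Ptger4 were higher at 1 h and Ptgs2 and Ptges at 4 h, beside 5.04% and 11.4% of all genes, and 0 were lower, beside 2.08% and 11.4%. At 12 h, 3 were higher (8.87% of all genes) and 3 lower (8.42%), and at 24 h 3 were higher (7.93%) and 1 lower (6.93%). Between the times, 2 were higher at 4 h than at 1 h (19.8% of all genes) and 3 lower (19.1%), 2 were higher at 12 h than at 4 h (16.7%) and 4 lower (19.2%), and 1 was higher at 24 h than at 12 h (5.31%) and 2 lower (8.9%). The median log2 fold change of the 8 genes was 0.80, 0.37, -0.93 and -0.15 at the 4 times, beside -0.03, -0.07, -0.03 and 0.02 over all genes tested. The treated samples did not overlap control for 48.4% (1 h), 64.5% (4 h), 61.5% (12 h) and 60.3% (24 h) of all genes tested. Between the times this share was 56.2% (4 against 1 h), 51.4% (12 against 4 h) and 33.9% (24 against 12 h). A gap between groups was thus common, and is given below as a description.

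**Figure D2:**
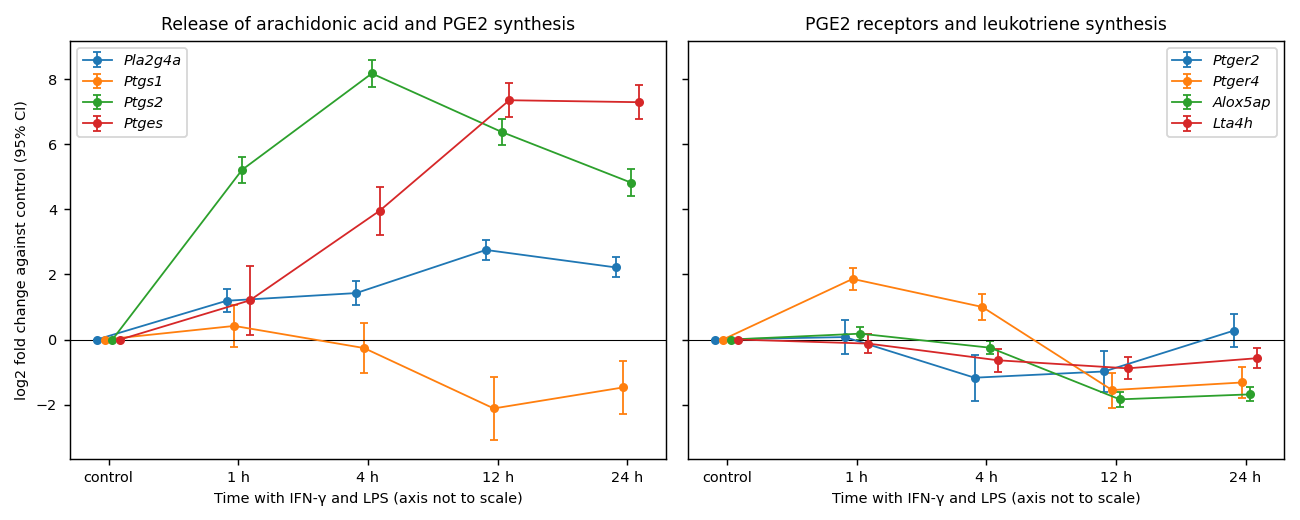
Log2 fold change against control BMDMs of the 8 tested genes over 24 h of IFN-γ-primed LPS, with 95% confidence intervals (time axis not to scale). Ptgs2 peaks at 4 h (8.17), Ptges climbs to 7.35 at 12 h and stays there, Pla2g4a peaks at 12 h (2.75), and Ptger4 turns from 1.86 at 1 h to -1.55 at 12 h.

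Ptgs2, which encodes COX-2, was already higher at 1 h, as were Pla2g4a and Ptger4, and had the largest fold change of the 8 tested genes at 1 and 4 h. Its level was 19.4, 17.95 and 31.6 CPM in the 3 control samples, 818, 835 and 967 CPM at 1 h, and 5993, 7631 and 7076 CPM at 4 h. It then stood at 2119, 2188 and 1620 CPM at 12 h and 530, 763 and 664 CPM at 24 h. Every treated sample lay above every control sample, and the 4 times did not overlap each other. Against control, the log2 fold change was 5.21 ± 0.21 (SE) at 1 h, then 8.17 ± 0.22 at 4 h (288-fold, adjusted p = 8.46e-17), 6.38 ± 0.21 at 12 h and 4.82 ± 0.21 at 24 h. The step from 1 to 4 h was a rise (2.96 ± 0.15, adjusted p = 6.87e-12), and the steps from 4 to 12 h (-1.79 ± 0.15, adjusted p = 7.97e-09) and from 12 to 24 h (-1.56 ± 0.15, adjusted p = 2.64e-07) were falls. The stromal cell markers, from cells that can also make COX-2, summed to 72.4 to 108 CPM in control and 66.1 to 109 CPM at 4 h. The neutrophil markers (7 of 8 in the tables) summed to 13.6 to 23.6 CPM in control and 37.4 to 51.8 CPM at 4 h. The part of either kind of cell in the result was not tested.

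Ptges, the inducible prostaglandin E2 synthase, followed later than Ptgs2. It had 1.08, 4.35 and 4.29 CPM in control, 8.41, 5.16 and 9.12 CPM at 1 h, 51.5, 59.1 and 48.5 CPM at 4 h, 455, 458 and 758 CPM at 12 h, and 512, 503 and 540 CPM at 24 h. All samples at 1 h lay above the control samples, beside 48.4% of all genes whose groups did not overlap. The change at 1 h was not called (log2 fold change 1.204 ± 0.54 (SE), adjusted p = 0.0911). The adjusted p at 1 h became 0.00772 with no filter beyond 1 count and 0.00643 without the third 12 h sample. The log2 fold change was 3.95 ± 0.38 at 4 h (adjusted p = 7.17e-09), 7.35 ± 0.27 at 12 h (163-fold, adjusted p = 2.56e-16) and 7.29 ± 0.27 at 24 h. Control samples had 2, 8 and 8 counts, and Ptges passed the filter on low counts only through samples with IFN-γ-primed LPS. Its calls against control are therefore no separate support. Between 4 and 12 h, while Ptgs2 fell, Ptges rose 10.5-fold (3.40 ± 0.18, adjusted p = 1.07e-12). Between 12 and 24 h no change of Ptges was detected, and the 95% interval of the difference ran from -0.33 to 0.21 on the log2 scale.

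Pla2g4a, the phospholipase at the head of the pathway (chr1:149829618-149961290, minus strand, on the chromosome of Ptgs2), rose in a slower and smaller course. Its level was 21.5, 20.1 and 17.7 CPM in control, 34.8, 53.5 and 50.7 CPM at 1 h, and 49.7, 53.7 and 62.5 CPM at 4 h. It reached 137, 134 and 142 CPM at 12 h and stood at 80.3, 104 and 93.3 CPM at 24 h. No treated sample overlapped the control. In log2 fold change this was 1.19 ± 0.18 (SE) at 1 h (adjusted p = 3.51e-07), 1.43 ± 0.18 at 4 h, 2.75 ± 0.15 at 12 h (6.73-fold, adjusted p = 6.95e-21) and 2.22 ± 0.16 at 24 h. It did not differ detectably between 1 and 4 h (0.24 ± 0.16, adjusted p = 0.225), rose between 4 and 12 h (1.33 ± 0.14, adjusted p = 3.91e-11) and fell between 12 and 24 h (-0.54 ± 0.12, adjusted p = 0.000561).

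Ptgs1, which encodes COX-1, moved the other way and late. It had 4.30, 7.07 and 9.65 CPM in control and 7.10, 7.003 and 4.11 CPM at 4 h, with overlapping samples. At 12 h it had 1.16, 1.303 and 2.36 CPM, from 2, 2 and 4 counts, and at 24 h 2.45, 2.99 and 2.11 CPM. The log2 fold change was -2.12 ± 0.49 (SE) at 12 h (adjusted p = 0.00023) and -1.47 ± 0.41 at 24 h (adjusted p = 0.00228). At 24 h the call was lost with DESeq2 (adjusted p = 0.0199), without the third control sample (-1.17, adjusted p = 0.0386) and without the third 24 h sample (-1.33, adjusted p = 0.0163). The fall between 4 and 12 h (-1.85 ± 0.55, adjusted p = 0.00445) was lost with DESeq2 (adjusted p = 0.0205), with scaling by library size alone (adjusted p = 0.0112) and without the first or second sample of 4 h (adjusted p = 0.02 and 0.0238) or of 12 h (adjusted p = 0.022 and 0.0173).

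The 2 cyclooxygenase genes can also be compared within each sample. Ptgs2 held 76.7% ± 5.04 (SD, n = 3) of the counts of both genes in control BMDMs and, with IFN-γ-primed LPS, 98.9% (1 h), 99.9% (4 h), 99.9% (12 h) and 99.6% (24 h). After IL-4 and IL-13 the share was 40.6% ± 10.7 and 33.2% ± 3.59 (SD, n = 3), so that Ptgs1 held the larger part in the mean of both groups, although 1 of the 3 IL-4 samples had 51.4%. In RAW264.7 the share went from 27.8% and 21.5% in the 2 control samples to 98.9% and 98.3% with LPS. Ptgs2 has the longer exons (4453 against 2867 bases), and per kilobase its share was 68.1% in control BMDMs, 30.9% with IL-4 (21.6% to 40.5%, so under 50% in all 3 samples), 24.3% with IL-13 and 17.4% in RAW264.7 control cells.

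**Figure D3:**
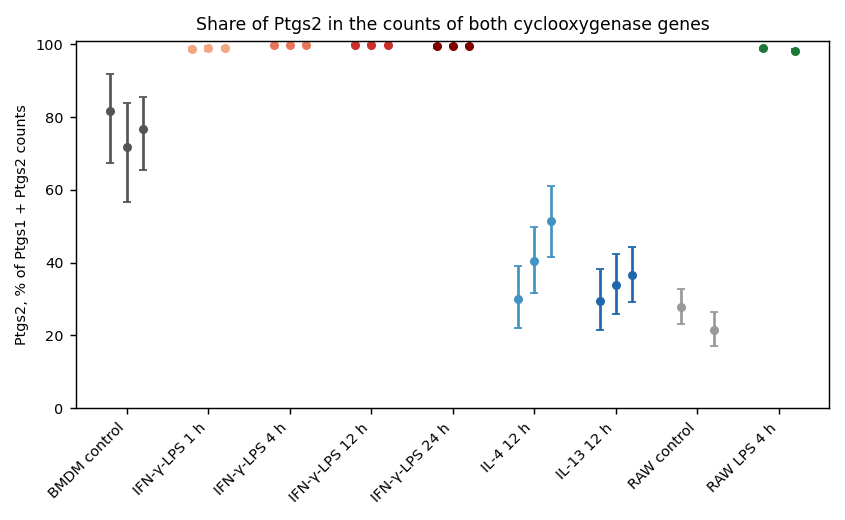
Share of Ptgs2 in the sense counts of Ptgs1 and Ptgs2 in each sample, with exact 95% binomial intervals that cover counting error only. The share lies between 71.7% and 81.8% in control BMDMs, at 98.3% or above in every sample with LPS, and between 21.5% and 51.4% in the samples with IL-4 or IL-13 and the RAW264.7 control cells.

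The prostaglandin E2 receptors moved at different times. Ptger4, which encodes EP4 (chr15:5206661-5244187, minus strand), had 21.0, 16.3 and 19.8 CPM in control and 65.6, 65.8 and 80.6 CPM at 1 h. It then stood at 39.9, 42.0 and 37.0 CPM at 4 h, 7.52, 7.17 and 5.31 CPM at 12 h, and 8.33, 4.48 and 9.71 CPM at 24 h. The samples of 1 and 4 h all lay above the control samples, and those of 12 and 24 h all lay below them. Ptger4 changed by a log2 of 1.86 ± 0.17 (SE) at 1 h (adjusted p = 9.06e-13), 1.00 ± 0.20 at 4 h (adjusted p = 3.03e-05), -1.55 ± 0.27 at 12 h (adjusted p = 3.67e-06) and -1.32 ± 0.25 at 24 h (adjusted p = 1.3e-05). The call at 4 h depended on the scaling: with library size alone the change was 0.47 (adjusted p = 0.0356), where the median over all genes was -0.61.

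Ptger2, which encodes EP2 (chr14:44988195-45003820, plus strand), did not differ detectably from control at 1 h (0.08 ± 0.27 (SE), adjusted p = 0.864). It had 12.9, 8.71 and 14.5 CPM in control, 4.44, 5.45 and 6.58 CPM at 4 h, 5.21, 9.77 and 4.13 CPM at 12 h, and 15.2, 12.95 and 15.6 CPM at 24 h. Samples of 4 h lay below the control samples, and those of 12 h overlapped them. On the log2 scale the change was -1.17 ± 0.36 at 4 h (adjusted p = 0.00437) and -0.98 ± 0.32 at 12 h (adjusted p = 0.00787), and the rise between 12 and 24 h was 1.26 ± 0.30 (adjusted p = 0.00134). These calls rest on few counts. At 4 h the call was lost with DESeq2 (adjusted p = 0.0283) and without the first or the third control or the first or second 4 h sample (adjusted p from 0.015 to 0.0273). At 12 h it was lost with DESeq2 (adjusted p = 0.0516), with no filter (adjusted p = 0.0126), in 1 fit of all 25 samples (adjusted p = 0.0161) and without the first or the third sample of either group (adjusted p from 0.0291 to 0.074). The rise between 12 and 24 h was lost with DESeq2 (adjusted p = 0.0192) and without the first or the third 12 h sample (adjusted p = 0.0139 and 0.0196).

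The leukotriene genes fell or were too low to test. Alox5ap, which encodes FLAP (chr5:149264767-149288153, plus strand), had 205, 217 and 211 CPM in control, 242, 250 and 239 CPM at 1 h, and 202, 190 and 159 CPM at 4 h. It then had 59.6, 53.4 and 69.0 CPM at 12 h and 64.7, 63.8 and 68.4 CPM at 24 h. The samples of 12 and 24 h lay far below those of the earlier times. The log2 fold change was -1.84 ± 0.11 (SE) at 12 h (3.57-fold lower, adjusted p = 3.73e-19) and -1.68 ± 0.11 at 24 h (adjusted p = 1.84e-18), most of it in the step from 4 to 12 h (-1.59 ± 0.12, adjusted p = 1.24e-15). At 4 h the value was -0.25 ± 0.10 and not called (adjusted p = 0.0325), but it was called lower with scaling by library size alone (-0.78, adjusted p = 4.87e-09) and when each sample had to hold 10 counts or more (-0.41, adjusted p = 0.000621). The step from 1 to 4 h was called (-0.43 ± 0.10, adjusted p = 0.000447), but not without the third 4 h sample (-0.34, adjusted p = 0.0141).

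Lta4h, which makes leukotriene B4 (chr10:93453411-93484875, plus strand), fell less. It had 56.0, 56.0 and 49.3 CPM in control, 44.4, 30.3 and 33.7 CPM at 4 h, 22.6, 28.7 and 38.9 CPM at 12 h and 38.2, 30.9 and 39.3 CPM at 24 h, and these later samples all lay below the control samples. The log2 fold change was -0.64 ± 0.18 (SE) at 4 h (adjusted p = 0.00172), -0.88 ± 0.17 at 12 h (adjusted p = 1.74e-05) and -0.57 ± 0.16 at 24 h (adjusted p = 0.00185). At 4 h the call was lost with DESeq2 (adjusted p = 0.0158) and without the second or the third 4 h sample (-0.50 and -0.58, adjusted p = 0.0292 and 0.0156). At 24 h it was lost with DESeq2 (adjusted p = 0.0106), without the first or second control sample (adjusted p = 0.0108 and 0.0116) and without the second 24 h sample (-0.47, adjusted p = 0.0222).

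Ltc4s, which makes leukotriene C4 (chr11:50236461-50238616, minus strand), was low throughout. It had 4, 5 and 14 counts in the control samples (2.15, 2.72 and 7.51 CPM), 1, 2 and 2 counts at 4 h, 0, 0 and 1 at 12 h, and 2, 3 and 1 at 24 h, and no fold change is given for the time course. Ltc4s is also a gene of eosinophils. The 4 eosinophil markers summed to 18.8 to 28.8 CPM in control, 3.26 to 5.31 CPM at 12 h and 0 to 2.45 CPM at 24 h, almost wholly through Siglecf and Ccr3, and the granule gene Epx was at 0 in control. Their part in the result was not tested, and fewer cells of a type and less RNA per cell cannot be told apart in bulk samples.

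Of 46 further genes of the pathway on a list of phospholipases, prostanoid and leukotriene enzymes, transporters and receptors, 18 were tested in the time course. Of these 18, 3 were higher at 1 h, beside 14.7% of all genes, and 3 lower, beside 11.3%. At 4 h, 4 were higher (26% of all genes) and 9 lower (25.6%), at 12 h 6 higher (23.9%) and 8 lower (23.4%), and at 24 h 8 higher (23.9%) and 7 lower (21.3%). Hpgd, which encodes the dehydrogenase that inactivates prostaglandin E2, fell from a mean of 21.2 CPM (18.3 to 23.6) in control to 5.65 CPM at 1 h (-1.93 ± 0.30 (SE), adjusted p = 1.25e-06) and 1.33 CPM at 4 h. At 12 h Hpgd had 1 count in all 3 libraries against 118 in control, a ratio of 105 with an exact 95% counting interval from 18.5 to 4191. At 24 h it had 0, which is at least 15-fold lower than control with 3 counts per library as the floor (1.41 CPM). Hpgds, a prostaglandin D2 synthase, had 135 CPM in control and 36.2 CPM at 4 h (-1.95 ± 0.16, adjusted p = 2.47e-14) and 42.1 CPM at 24 h (-1.69 ± 0.14, adjusted p = 4.31e-14).

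Among the other pathway genes that rose was Pla2g7, which encodes the platelet-activating factor acetylhydrolase, from 155 CPM to 571 CPM at 1 h and 811 CPM at 24 h (2.38 ± 0.14 (SE) at 24 h, adjusted p = 2.94e-14). The exporter Abcc1, which carries leukotriene C4 out of cells, rose from 110 CPM to 332 CPM at 4 h (1.54 ± 0.10, adjusted p = 5.67e-18) and 366 CPM at 12 h. Mgst3, a microsomal glutathione transferase, fell from 33.6 CPM to 7.68 CPM at 12 h and 4.77 CPM at 24 h (-2.79 ± 0.24, adjusted p = 4.32e-14). The lysosomal phospholipase Pla2g15 fell from 178 CPM to 51.1 CPM at 4 h (-1.85 ± 0.13, adjusted p = 1.35e-17). Tbxas1, the thromboxane synthase, stood above its control level at 4 h, a change that was called. It then fell between 4 and 12 h from 172 to 49.3 CPM (-1.79 ± 0.13, adjusted p = 4.3e-16).

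The second question was how the cytokines of alternative activation, IL-4 and IL-13, acted on these genes. Samples of control, IL-4 and IL-13 were fitted together (edgeR quasi-likelihood test, 9252 genes), both comparisons share the 3 control samples, and 8 of the 10 genes were tested, without Alox5 and Ptges. With IL-4, 1 was higher (Ptgs1), beside 4.38% of all genes, and 1 lower (Ptger4), beside 3.25%. With IL-13, 2 were higher (Ptgs1, Ptger2), beside 5.61%, and 1 lower (Alox5ap), beside 4.49%. With the study's cutoff for these cytokines (log2 fold change of 0.7), the call of Alox5ap dropped out and the others stayed, beside 2.22% of all genes higher and 1.64% lower with IL-4, and 2.98% higher and 2.38% lower with IL-13. The median log2 fold change of the 8 genes was 0.21 with each cytokine, beside -0.01 over all genes in both comparisons. The treated samples did not overlap control for 29.9% of all genes with IL-4 and 30.2% with IL-13.

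**Figure D4:**
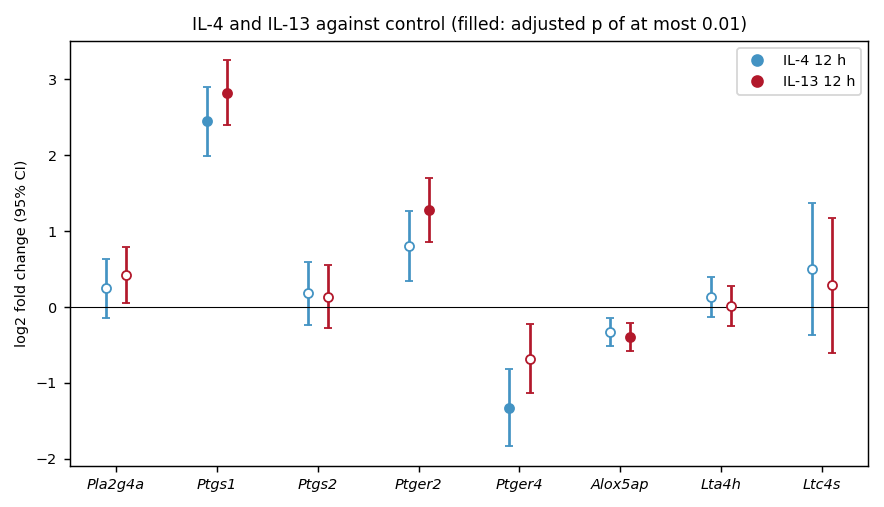
Log2 fold change against control BMDMs after 12 h of IL-4 or IL-13 for the 8 tested genes, with 95% confidence intervals and filled points where the adjusted p was at most 0.01. Ptgs1 stands at 2.45 with IL-4 and 2.82 with IL-13, while Ptgs2, Lta4h and Ltc4s have intervals that include 0.

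Ptgs1 RNA rose with both cytokines, and no change of Ptgs2 RNA was detected. Ptgs1 went from 4.30, 7.07 and 9.65 CPM to 44.1, 40.1 and 31.7 CPM with IL-4 and 51.3, 46.2 and 54.8 CPM with IL-13, with no overlap. This was a log2 fold change of 2.45 ± 0.23 (SE) with IL-4 (5.45-fold, adjusted p = 3.9e-12) and 2.82 ± 0.22 with IL-13 (7.08-fold, adjusted p = 2.2e-15). Ptgs2 had 18.9, 27.3 and 33.5 CPM with IL-4 and 21.3, 23.6 and 31.5 CPM with IL-13, which overlapped the control samples, and its log2 fold changes had 95% intervals from -0.23 to 0.60 and from -0.28 to 0.55. Ptges had 5, 7 and 7 counts with IL-4 and 1, 2 and 2 counts with IL-13, against 2, 8 and 8 in control, and was not tested.

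Of the receptor genes, Ptger2 rose with IL-13 and Ptger4 fell with IL-4. Ptger2 had 19.4, 25.6 and 18.5 CPM with IL-4 and 34.0, 30.8 and 24.9 CPM with IL-13, above the 8.71 to 14.5 CPM of the control samples. Its rise was called with IL-13 (1.28 ± 0.22 (SE), adjusted p = 8.17e-06) but not with IL-4 (0.80 ± 0.23, adjusted p = 0.0142). With IL-4, leaving the first or the third IL-13 sample out of the fit gave adjusted p = 0.00827 and 0.00984. Ptger4 had 9.45, 6.69 and 6.58 CPM with IL-4 and 13.8, 10.8 and 11.7 CPM with IL-13, below the 16.3 to 21.0 CPM of the control samples. Its fall was called with IL-4 (-1.33 ± 0.26, adjusted p = 0.00016) but not with IL-13 (-0.68 ± 0.23, adjusted p = 0.0362).

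Among the leukotriene genes the only call was Alox5ap with IL-13. It had 164, 166 and 179 CPM with IL-4 (-0.33 ± 0.09 (SE), adjusted p = 0.013) and 154, 163 and 172 CPM with IL-13 (-0.39 ± 0.09, adjusted p = 0.00177), below the 205 to 217 CPM of the control samples. With IL-13 the call was lost without the second or the third control sample (adjusted p = 0.016 and 0.0105), and with IL-4 it was gained without the first or the third IL-13 sample (adjusted p = 0.00398 and 0.00753). Lta4h had 51.3 to 65.6 CPM with IL-4 and 52.8 to 56.5 CPM with IL-13, and the 95% intervals of its log2 fold changes ran from -0.13 to 0.40 and from -0.25 to 0.28. Ltc4s had 2.99 to 7.80 CPM and 4.10 to 6.92 CPM, and its intervals, from -0.36 to 1.38 and from -0.60 to 1.18, were too wide to show a modest change. Pla2g4a, with 22.1 to 25.6 CPM and 24.4 to 29.2 CPM, was not called (0.24 ± 0.20 and 0.42 ± 0.19, adjusted p = 0.487 and 0.125).

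Between IL-13 and IL-4, 0 of the 8 genes were called by edgeR's quasi-likelihood test, and 0 by DESeq2, beside 0.108% of all genes (10 genes, or 3 to 20 with 1 sample left out). At an unadjusted p under 0.05 there were 3 (Ptgs1, Ptger2, Ptger4), each higher with IL-13, beside 6.95% of all genes. The 95% intervals of the log2 difference ran from 0.07 to 0.68 for Ptgs1, from 0.10 to 0.86 for Ptger2 and from 0.08 to 1.21 for Ptger4, and their adjusted p-values were 0.563, 0.55 and 0.628. A call with 1 cytokine and not with the other is therefore not shown to be a difference between them.

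Of the other pathway genes, 18 were tested with IL-4 and IL-13, and 3 were higher and 3 lower with each, beside 4.38% of all genes higher and 3.25% lower with IL-4, and 5.61% and 4.49% with IL-13. Ptgir, which encodes the prostacyclin receptor, rose from a mean of 17.98 CPM to 78.7 CPM with IL-4 (2.11 ± 0.15 (SE), adjusted p = 4.3e-16) and 102.2 CPM with IL-13 (2.48 ± 0.15, adjusted p = 8.62e-20). Tbxas1 rose from 104 CPM to 194 and 242 CPM (0.89 ± 0.11 and 1.199 ± 0.11, adjusted p = 5.04e-09 and 2.03e-13). Hpgd fell from 21.2 CPM to 8.59 and 11.4 CPM (-1.31 ± 0.25 and -0.90 ± 0.23, adjusted p = 9.48e-05 and 0.00366), and Pla2g7 fell with IL-4 from 155 to 87.3 CPM (-0.84 ± 0.11, adjusted p = 4.93e-08). Pla2g7 was also among the genes called with IL-13, for which its value is not given here.

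At 12 h, the BMDMs with IFN-γ-primed LPS could be set directly beside those with IL-4 or IL-13, in a fit of all 25 samples (edgeR quasi-likelihood test, 10612 genes, all 10 genes tested). Pla2g4a, Ptgs2 and Ptges were higher with IFN-γ-primed LPS and Ptgs1, Ptger2, Alox5ap, Lta4h and Ltc4s lower, in both comparisons, which share the 3 samples with IFN-γ-primed LPS. This was 3 higher of 10, beside 21.1% of all genes against IL-4 and 21% against IL-13, and 5 lower, beside 19.9% and 20%. In this fit Ptges passed the filter on low counts only through samples with LPS, and Ltc4s only through BMDM samples without it. Each was high in the samples that passed it, so that the calls of these genes are no separate support. Ptges was 155-fold higher than with IL-4 (log2 7.27 ± 0.23 (SE), adjusted p = 3.67e-26) and Ptgs2 74.9-fold (6.23 ± 0.21, adjusted p = 1.26e-16), while Ptgs1 was 23.2-fold lower (-4.53 ± 0.33, adjusted p = 1.14e-20). Ptger2 was 3.37-fold lower than with IL-4 (adjusted p = 1.15e-06) and 4.72-fold lower than with IL-13 (adjusted p = 2.47e-10). Ltc4s had 1 count in the 3 libraries with IFN-γ-primed LPS against 32 with IL-4 and 29 with IL-13, ratios of 29.5 and 25.4 with exact 95% counting intervals from 4.94 to 1203 and from 4.22 to 1039. Ptger4, lower than control in the time course at 12 h and with IL-4, did not differ detectably between these 2 (-0.20 ± 0.33, adjusted p = 0.657), with a 95% interval from -0.84 to 0.45.

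Last came the question how the RAW264.7 line compared with BMDMs. In control cells, RAW264.7 had 14.0-fold more Pla2g4a (291 and 263 CPM against 17.7 to 21.5 CPM, log2 3.804 ± 0.14 (SE), adjusted p = 2.06e-36) and 12.9-fold more Ptgs1 (87.7 and 94.1 CPM against 4.30 to 9.65 CPM, 3.68 ± 0.20, adjusted p = 9.47e-27). Alox5, at 0 in control BMDMs, had 18 and 15 counts in RAW264.7 (6.26 and 5.45 CPM), at least 3.62-fold more than a floor of 3 counts per BMDM library allows. Alox5 passed the filter on low counts in this fit only through the RAW264.7 samples, where it was high. Its call is therefore no separate support, with an adjusted p of 8.97e-07 by edgeR's quasi-likelihood test and 0.344 by DESeq2. Alox5ap was lower in RAW264.7 (121 and 127 CPM against 205 to 217 CPM, -0.76 ± 0.11, adjusted p = 4.81e-09). Ptger2 had 3 counts and 0 counts in the 2 RAW264.7 control samples against 67 in the 3 of BMDMs, a ratio of 22.6 with an exact 95% counting interval from 7.41 to 112. In all, 3 of the 10 genes were higher (Pla2g4a, Ptgs1 and, with this limit of the filter, Alox5), beside 31.9% of all genes. There were 2 lower, beside 33.7%, and Ptgs2, Ptges, Lta4h, Ltc4s and Ptger4 were not called. Per kilobase, Alox5ap (92.3 ± 3.02 CPM per kb, SD, n = 2) and Pla2g4a (90.8 ± 6.36) stood level at the head of the 10 genes in RAW264.7 control cells.

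With LPS for 4 h, RAW264.7 had 3 of 9 tested genes higher (Ptgs2, Ptges, Ptger2), beside 15.1% of all 9406 genes, and 2 lower (Pla2g4a, Ptgs1), beside 12.8% (edgeR quasi-likelihood test on the 4 RAW264.7 samples). With the study's cutoff for this line (log2 fold change of 2) there were 3 higher and 0 lower, beside 2.39% and 0.829% of all genes. Ptgs2 went from 33.7 and 25.8 CPM to 2292 and 2136 CPM (6.25 ± 0.09 (SE), 76.2-fold). Ptges went from 4 and 2 counts to 25 and 22 counts (1.39 and 0.727 CPM to 9.98 and 7.64 CPM, 3.02 ± 0.50, adjusted p = 2.12e-08), so that it stayed well below the 48.5 to 59.1 CPM of BMDMs at 4 h. Ptger2 had 23 and 57 counts (9.18 and 19.8 CPM) against 3 and 0, a ratio of 27.9 with an exact 95% counting interval from 9.20 to 138. Ptges and Ptger2 passed the filter on low counts in this fit only through the LPS samples, so that their calls are no separate support. Ptgs1 fell to 25.9 and 36.8 CPM (-1.48 ± 0.14, adjusted p = 2.84e-24), and Pla2g4a fell from 291 and 263 to 193 and 183 CPM (-0.52 ± 0.08, adjusted p = 1.05e-08). Alox5, with 18 and 15 counts before and 6 and 16 after LPS, overlapped between the groups and was not called (adjusted p = 0.378), and neither were Lta4h (adjusted p = 0.25) or Ptger4 (adjusted p = 0.269). Alox5ap, 121 and 127 CPM before and 110 and 97.3 CPM after, was not called (-0.22 ± 0.10, adjusted p = 0.0781), but was called lower with scaling by library size alone (-0.40, adjusted p = 0.000807).

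**Figure D5:**
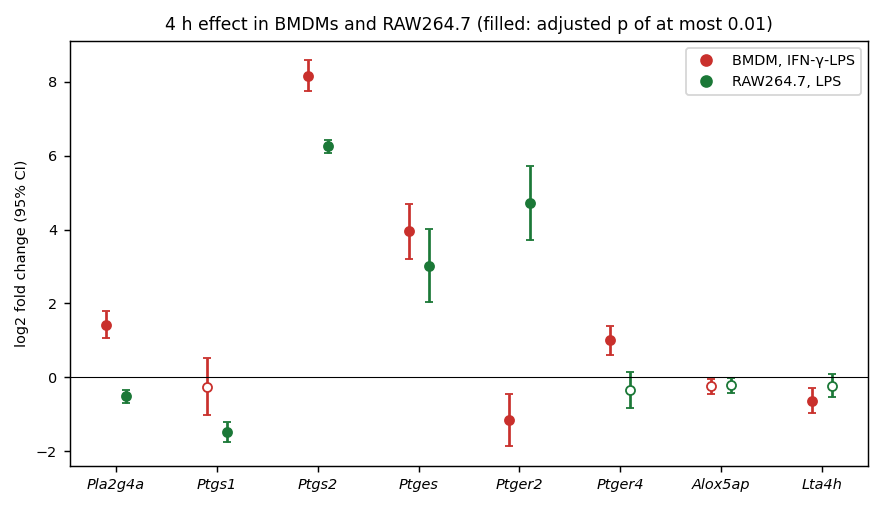
Log2 fold change at 4 h in BMDMs (IFN-γ-primed LPS) and in RAW264.7 (LPS alone), each against its own control, with 95% confidence intervals and filled points where the adjusted p was at most 0.01. Pla2g4a stands at 1.43 in BMDMs and -0.52 in RAW264.7, and Ptger2 at -1.17 in BMDMs and 4.72 in RAW264.7, a value that rests on 3 counts in the RAW264.7 control.

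The change at 4 h was then compared between the 2 kinds of cell by an interaction term in the fit of all 25 samples. The change of 1 gene was more upward in RAW264.7 (Ptger2), beside 9.75% of all genes, and that of 3 was less upward or downward (Pla2g4a, Ptgs2, Ptger4), beside 15.3%. For Pla2g4a the difference of the log2 fold changes was -2.04 ± 0.21 (SE, adjusted p = 6.78e-13), with every BMDM sample higher and both RAW264.7 samples lower than their controls. For Ptger2 it was 5.75 ± 0.69 (adjusted p = 9.93e-11), and 4.86 to 8.92 with 1 sample left out, the highest without the first RAW264.7 control sample. For Ptgs2 it was -2.01 ± 0.34 (adjusted p = 7.33e-05), with all samples higher in both kinds of cell. For Ptger4 it was -1.44 ± 0.31 (adjusted p = 0.000113). For Ptgs1 it was -1.31 ± 0.44 and not called (adjusted p = 0.0137), although leaving out the third control BMDM, the third 4 h BMDM or the second RAW264.7 LPS sample gave adjusted p = 0.00469, 0.00853 and 0.0047. For Lta4h it was 0.31 ± 0.24 (adjusted p = 0.356), and 0.76 (adjusted p = 0.00923) with scaling by library size alone. For Ptges it was -1.05 ± 0.98 and not called (adjusted p = 0.462), so that its lower level in RAW264.7 is not shown to be a smaller rise. At 4 h, treated samples did not overlap their controls for 64.5% of all genes in BMDMs and 66.4% in RAW264.7. The BMDMs received IFN-γ and LPS and the RAW264.7 cells LPS alone, so that kind of cell, strain and treatment cannot be told apart.

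Of the other pathway genes, 18 were tested in RAW264.7 with LPS, of which 4 were higher and 2 lower (15.1% and 12.8% of all genes), and 20 in the comparisons between the 2 kinds of cell. In control cells 7 of these 20 were higher in RAW264.7 and 8 lower, near the 31.9% and 33.7% of all genes. Pla2g5, a secreted phospholipase A2, had 23.2 CPM in RAW264.7 and 0.361 CPM in BMDMs (5.78 ± 0.52 (SE), adjusted p = 3.61e-16). Pla2g5 passed the filter on low counts only through RAW264.7 samples, where it was high, so that its call is no separate support. Cysltr1, a cysteinyl leukotriene receptor, had 47.2 against 9.55 CPM (2.30 ± 0.23, adjusted p = 1.57e-14). Tbxas1 had 4.62 against 104 CPM (-4.47 ± 0.21, adjusted p = 2.56e-30). The interaction at 4 h was called for 5 of the 20 toward a higher change in RAW264.7 and 3 toward a lower one (9.75% and 15.3% of all genes), among them Ptgir (2.46 ± 0.33, adjusted p = 3.67e-09) and Cysltr1 (-1.83 ± 0.43, adjusted p = 0.000362).

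Set side by side over the 9 conditions, each gene had its own order of levels. Ptgs2 was highest in BMDMs at 4 h (6900 ± 833 CPM, SD, n = 3), then in RAW264.7 with LPS (2214 ± 111, n = 2) and BMDMs at 12 h (1976 ± 310), whose samples overlapped, and lowest in the control, IL-4, IL-13 and RAW264.7 control groups, which overlapped each other. Ptges was highest at 12 h (557 ± 174 CPM, SD, n = 3) and 24 h (518 ± 19.4), which overlapped. Pla2g4a ran from RAW264.7 control cells (277 ± 19.4 CPM, SD, n = 2) through RAW264.7 with LPS (188 ± 6.60) to BMDMs at 12 h (137.8 ± 3.99, n = 3) and down to control BMDMs (19.8 ± 1.94), with overlaps between neighbours only for 4 and 1 h and for IL-13 and IL-4. Ptgs1 ran from RAW264.7 control cells (90.9 ± 4.55 CPM, SD, n = 2) through IL-13 (50.8 ± 4.35, n = 3), IL-4 (38.6 ± 6.34) and RAW264.7 with LPS (31.4 ± 7.70), the last 2 overlapping, to 1.61 ± 0.66 CPM at 12 h. Per kilobase, Ptgs2 had the highest mean of the 10 genes at all 4 times with IFN-γ-primed LPS, but at 1 h its samples (183.7, 187.5 and 217 CPM per kb) overlapped those of Alox5ap (180.0, 185.9 and 177.7), and at 24 h Ptgs2 (146.5 ± 26.2 CPM per kb, SD, n = 3) and Ptges (142 ± 5.31) did not differ beyond their spread.

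The genes whose mean log2 CPM over the 7 BMDM groups ran most like that of the cyclooxygenases and Ptges were named as a description, among 8735 genes with at least 10 CPM in at least 1 BMDM group. For Ptgs2 they were Cflar (Pearson r = 0.998), Cd40 (0.997) and Fam26f (0.997). For Ptges they were Apol9b (0.994), Hrh2 (0.993) and Zfp811 (0.993), and for Ptgs1 Inpp5a (0.987), Ipmk (0.978) and Sestd1 (0.977). With 7 points that share the same libraries, and so many genes to choose from, high values are common. For Alox5, the same rule gave Gatad2a (0.956), Hpcal1 (0.933) and BC027231 (0.922), but its highest BMDM group mean of 0.797 CPM came from 1 library.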

How the data were processed

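RNA-seq counts of 25 samples in 9 groups were analysed, grouped by the sample labels. The authors depleted ribosomal RNA, made directional libraries and, per the labels' processing notes, used CASAVA 1.8.2, Trimmomatic 0.33, STAR 2.5.1 and mm10. They deposited raw counts per gene symbol, not normalized, and the annotation release is not given in the sources used here. Sense counts (118 times the antisense total) without Rn45s were used. Rows naming no gene (76.6% to 80.2% of reads) were left out. Genes passed filterByExpr, and fits were edgeR 4.0.16 (R 4.3.3) quasi-likelihood, robust, with TMM and Benjamini-Hochberg adjustment over all genes tested. Fits held 15 (time course), 9 (IL-4, IL-13), 4 (RAW264.7) or 25 samples. Printed CPM use the TMM factors of all 25 samples (0.717 to 1.32). A call was an adjusted p of at most 0.01. A standard error is the size of the log2 fold change divided by the root of its F, and 95% intervals are 1.96 of them on each side.

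Alternatives were DESeq2 1.42.0, RLE scaling, library size alone, no filter, at least 10 counts in every sample, Rn45s kept, unstranded counts, the replicate number as a block, 1 fit of all samples, and each sample left out. On simulated counts for 4 h against control (9278 genes), edgeR called 57 of 100 genes changed by a log2 of 1 and 99 of 100 changed by 2, with 3 false calls. The changed genes were drawn from well-counted genes, with the same spread for every gene and far fewer changes than in the data. These rates therefore do not carry over to genes with few counts, such as Ptgs1 and Ltc4s. The 10 genes and the pathway list were chosen with earlier results of these data known. All 10 genes were named. Other pathway genes were named past the adjusted p and the study's fold cutoff with at least 5 CPM in the higher group. All 23 replicate pairs differed beyond sampling noise (chi-square per degree of freedom 1.33 to 4.93). BMDMs with LPS alone were not analysed here. Promoter windows are RefSeq's (GRCm38.p6). Figures were made with matplotlib 3.10.9.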

Additional observations from a re-analysis of the deposited data

Results flagged for a closer look

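In 4 of the 10 genes, the change at 4 h differed between RAW264.7 and BMDMs by the interaction term, beside 9.75% of all genes with a higher and 15.3% with a lower change in RAW264.7. The difference of the log2 fold changes (RAW264.7 minus BMDMs) was 5.75 for Ptger2, -2.04 for Pla2g4a, -2.01 for Ptgs2 and -1.44 for Ptger4. Ptger2 and Pla2g4a moved in opposite directions in the 2 kinds of cell, while Ptgs2 rose in both. For Pla2g4a each direction was called in its own fit. For Ptger2 the call in BMDMs was lost with DESeq2 (adjusted p = 0.0283). Its call in RAW264.7 is no separate support, because it passed the filter there only through the LPS samples. The value for Ptger2 rests on 3 counts in the RAW264.7 control samples, and was 8.92 without the first and 4.86 without the second of them. The BMDMs had IFN-γ-primed LPS and the RAW264.7 cells LPS alone, which cannot be told apart from the kind of cell. No group had enough samples for a search for single samples far from the rest.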

How the results depend on the processing

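Of 3049 values of the 10 genes recomputed under alternatives, 2962 kept their direction and side of the threshold, 41 lost and 19 gained a call, and 27 uncalled values changed sign. No called value reversed. The replicate block moved none of 126 values, called or not, across the threshold. Same-numbered samples showed little common deviation, with a mean correlation of 0.0242 in the time course (-0.0749 to 0.188). The mean was 0.00934 for IL-4 and IL-13, 0.0013 in RAW264.7 and 0.0171 over all. Deviations were taken from the means of small groups, so these values do not settle whether same-numbered samples shared a mouse or batch. RLE scaling changed no call either, and with DESeq2 9 calls were lost among 119 values, called or not. The cause of each change below was not tested, except where fewer genes were tested.

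With library size alone, which moved the median of all genes at 4 h from -0.07 to -0.61 and the share of higher among called genes from 50.4% to 24.3%, the log2 values that changed sign were Alox5ap (-0.0103) and Ptger2 (-0.11) at 1 h, Pla2g4a from 1 to 4 h (-0.10), Ptges from 12 to 24 h (0.0323), Ptger4 between control RAW264.7 and BMDMs (0.11) and Alox5ap in the interaction (0.38, with 2 genes then called higher there). Alox5ap in the interaction also changed sign with Rn45s kept (0.0023) and with at least 10 counts in every sample (0.12).

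With at least 10 counts in every sample, only 4 or 6 of the genes were tested by construction, and fewer were called: 2 higher at 4 h, 2 lower at 12 h and at 24 h, 1 higher from 1 to 4 h, 1 higher and 2 lower from 4 to 12 h, 0 higher from 12 to 24 h, 0 higher with IL-4, 1 higher with IL-13, 1 higher with LPS in RAW264.7, 2 lower at 12 h against each cytokine, 1 higher and 1 lower between the control cells, and 0 higher in the interaction. With DESeq2, 0 genes were called lower at 4 h, 2 lower at 24 h and 0 higher from 12 to 24 h.

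Leaving out 1 sample at a time, the genes called numbered 0 to 2 lower at 4 h, 0 to 1 higher from 12 to 24 h, 1 to 2 higher and 1 to 2 lower with IL-4, and 0 to 1 lower with IL-13. Uncalled log2 values that crossed 0 were Ptger2 at 1 h (-0.10 to 0.23) and from 4 to 12 h (-0.23 to 0.44), Ptgs1 at 4 h (-0.51 to 0.0429), Ptger4 (-0.0099 to 0.48) and Ptges (-0.20 to 0.21) from 12 to 24 h, Ptgs2 with IL-4 (-0.009002 to 0.48) and IL-13 (-0.0464 to 0.44), Lta4h (-0.0391 to 0.048) and Ltc4s (-0.0167 to 1.04) with IL-13, Ltc4s (-0.51 to 0.0345) and Ptgs2 (-0.25 to 0.15) between IL-13 and IL-4, Ptger4 at 12 h against IL-4 (-0.30 to 0.0042), and Alox5ap (-0.18 to 0.0261) and Ltc4s (-0.30 to 1.35) in the interaction.

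Over all genes, the calls with IL-13 went from 934 to 620 and those in RAW264.7 with LPS from 2625 to 1142 with DESeq2. Between IL-13 and IL-4 they went from 10 to 18 with no filter and 4 with at least 10 counts, and ran from 3 (without the third IL-4 sample) to 20 (without the first IL-13 sample) when 1 sample was left out, with 6 without the first or the second IL-4 sample. That filter, which tests fewer genes, also gave 2755 in place of 4353 against IL-4, 2749 in place of 4350 against IL-13, and 4158 in place of 6959 between the control cells. Alox5 in BMDMs, with 0 to 4 counts a library, could not be resolved at this depth.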

Other observations

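Ptgs2os2, a long noncoding RNA gene on the minus strand (GENCODE M21, GRCm38, chr1:150159043-150164948) beside Ptgs2 (chr1:150100031-150108227), was looked up after its values had been seen. It had 1, 0 and 0 counts in control BMDMs, 0 to 3 counts at 1 h, and 13.3, 13.2 and 13.2 CPM at 4 h. It then had 21.4, 17.6 and 21.8 CPM at 12 h and 7.84, 3.99 and 4.64 CPM at 24 h. Its highest level thus came at 12 h, where Ptgs2 had already fallen from 4 h. With IL-4 and IL-13 it had 1 count in 6 libraries. In RAW264.7 it was present without LPS (5.91 and 5.09 CPM) and stood at 14.4 and 10.8 CPM with it.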
